A study of Mus musculus with 16 samples.

Results

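The comparison described here sets 4 uterus arrays of mice with both exposures, called GenD, against 4 arrays of mice with neither, called SalV, out of 16 arrays in the series. The 8 arrays were chosen by their sample titles, with no use of measured values. GenD mice were given 50 mg/kg genistein, a soy isoflavone, on postnatal days 1 to 5, and 1 mg/kg dexamethasone in saline by intraperitoneal injection as adults. SalV mice had the neonatal carrier, named as 20 µl of corn oil in the design text and as saline in the sample labels, and 100 µl of saline as adults. Both groups had their adrenal glands and ovaries removed at 6 weeks of age, were injected at 8 weeks, and gave the whole uterus 4 h later. The other 8 arrays are 4 GenV (genistein, then vehicle) and 4 SalD (neonatal control, then dexamethasone), which serve here as values beside the comparison. The labels name no strain and no individual animals, so the p-values below measure the spread between arrays labelled as replicates, which may in part be technical.

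Dexamethasone is a synthetic ligand of the glucocorticoid receptor, a nuclear receptor that moves to the nucleus when bound, raises transcription at glucocorticoid response elements and restrains NF-kappaB and AP-1, the factors that drive many inflammatory genes. Genistein binds estrogen receptors, and exposure of newborn mice is known to disturb the later development and function of the female reproductive tract. Removing the adrenals and ovaries takes away the main sources of corticosterone, estradiol and progesterone, so the vehicle uterus is a low-hormone baseline.

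Each value is a scaled log2 signal, the log2 of an array spot's processed intensity minus the 75th percentile of that array, so that 0 is a bright spot and a difference of 1 is a doubling. The 75th percentile lay between 1321 and 1803 intensity units on the GenD arrays and between 948 and 2029 on the SalV arrays, where SalV replicate 3 had both the lowest percentile and the smallest share of spots well above background (68.9%, against 74.9 to 79.4% on the other 7 arrays). Correlations across genes ran from 0.967 to 0.985 within GenD, from 0.971 to 0.986 within SalV and from 0.941 to 0.978 between the groups. The first principal component carried 42.8% of the variance, with the GenD arrays at 12.2 to 74.1 and the SalV arrays at -80.6 to -5.11, and GenD replicate 1 and SalV replicate 1 were nearest to each other. Uterine identity was checked on genes of its main layers. The simple-epithelium keratin Krt18 averaged 6.17 in GenD and 6.17 in SalV, the stromal filament Vim 4.65 in GenD and 4.88 in SalV, the smooth muscle actin Acta2 6.22 in GenD and 6.71 in SalV, and the uterine homeobox gene Hoxa11 5.19 in GenD and 4.29 in SalV. All of them lay far above the 75th percentile of their arrays.

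After both exposures the uterus differed from the unexposed one at 2588 of the 23286 genes and unnamed targets tested (11.1%, limma moderated test, Benjamini-Hochberg adjusted p below 0.05), of which 975 were higher (4.19%) and 1613 lower (6.93%) in GenD. At an unadjusted p below 0.05 there were 7079. The largest rises were in glucocorticoid target genes and a set of secreted or membrane proteins, and the largest falls were in chemokines, Il1b and other inflammatory genes. Among the 15987 targets with a gene symbol the directions were nearly balanced, with 843 higher and 769 lower. Over all 23286 targets, unnamed ones included, called changes of at least 2-fold numbered 346 higher and 993 lower. Those of at least 4-fold numbered 68 higher and 105 lower. The median log2 fold change over all targets was 0.04. The 2 groups of arrays did not overlap for 20.8% of all targets.

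The balance of directions depended on how bright a target was and on scaling. With the targets in 5 equal classes of brightness, the dimmest class had 84 called higher and 338 lower, and the brightest had 255 higher and 117 lower. Calls were 37.7% higher with the 75th percentile, 55.1% with median scaling, which shifted the median of all targets to 0.15, 49.4% in a fit of all 16 arrays and 51.9% with array weights. The total of calls also rested on single arrays. It was 827 without SalV replicate 2, 1655 without SalV replicate 3, 1147 without SalV replicate 4, 876 without GenD replicate 3 and 1127 without GenD replicate 4. Slides 3 and 4 each held 1 GenD and 1 SalV array. Within them Fkbp5 differed by 5.59 (slide 3) and 2.88 (slide 4), Hsd11b2 by 4.92 and 3.66, Ccl2 by -1.73 and -4.25 and Il1b by -3.45 and -5.10. These arrays also entered the calls, so the direction within a slide is no separate check. GenD replicates 1 and 3 were on slide 2, which held no SalV array. SalV replicate 1 was on slide 1 and SalV replicate 3 on slide 5, which held no GenD array, so slide and group cannot be told apart there.

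**Figure D1:**
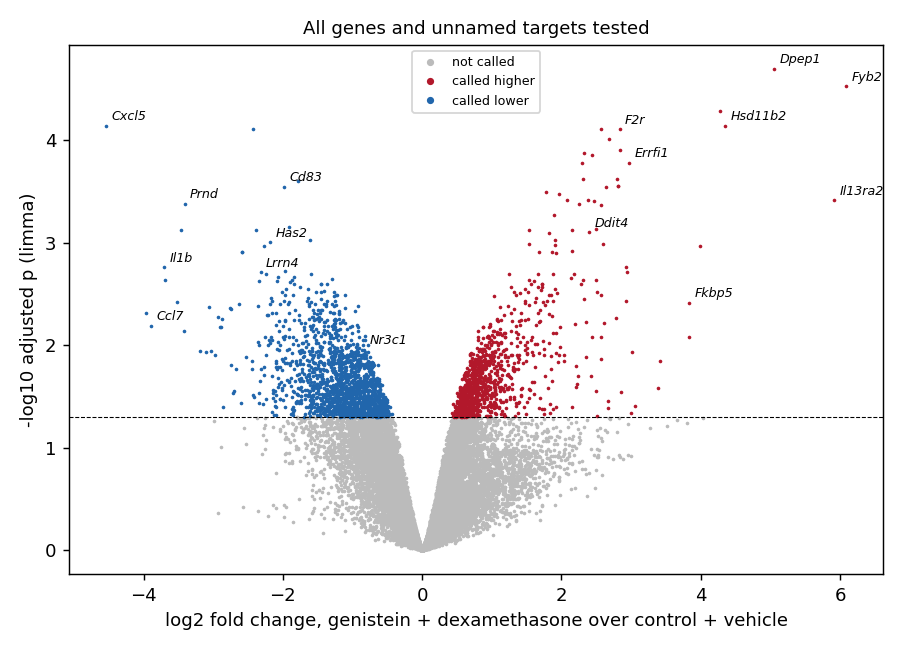
Each point is 1 of the 23286 genes or unnamed targets, with the log2 fold change of GenD over SalV on the horizontal axis and -log10 of the limma adjusted p on the vertical axis. Red points (975) were called higher and blue points (1613) lower at an adjusted p below 0.05 (dashed line), and Fyb2 and Il13ra2 lie farthest to the right and Cxcl5 farthest to the left. Cxcl5 was well above background on no GenD array, so its fall is known only as at least 6.28-fold. Its adjusted p is no support for the fall.

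Classical glucocorticoid target genes were raised. Of 41 tested genes known to be induced by glucocorticoids in other tissues, 25 rose and 1 (Ccn2) fell (63.4% called, against 11.1% of all targets). Their median log2 fold change was 1.10, against 0.04 over all targets. Fkbp5, the Hsp90 cochaperone that lowers the hormone affinity of the receptor, read -0.05, 1.14, 0.54 and 0.21 on the GenD arrays, against -3.84, -4.45, -2.56 and -2.67 on the SalV arrays. Every GenD array was far above every SalV array, and the log2 fold change was 3.84 ± 0.46 (SE, n = 4 each, adjusted p = 0.00387), with 2.92 and 3.09 on its other probes. Tsc22d3, the leucine zipper protein GILZ that binds NF-kappaB, read 4.82, 5.17, 4.71 and 4.86 in GenD, against 2.15, 2.75, 2.89 and 3.05 in SalV. Sgk1, a kinase of ion transport and cell survival, read 2.56, 3.25, 3.27 and 3.10 in GenD, against 1.21, 0.73, 1.43 and 1.05 in SalV. Neither gene's groups overlapped, and the rises were 2.18 ± 0.21 for Tsc22d3 (SE, adjusted p = 0.00202) and 1.94 ± 0.22 for Sgk1 (SE, adjusted p = 0.00307). The period gene Per1 (1.76), the MAP kinase phosphatase Dusp1 (1.88) and the zinc finger factor Klf9 (1.32) also rose without overlap of the groups. In the liver, glucocorticoids are known to induce tyrosine aminotransferase, and its gene Tat read -1.32, -1.20, -0.39 and -0.32 in GenD uterus, against -2.45, -4.34, -3.70 and -4.81 in SalV uterus, a rise of 3.01 ± 0.50 (SE, adjusted p = 0.0117). Fam107a, an actin-associated stress protein, rose by 3.99 ± 0.35 (SE, adjusted p = 0.00108) and Errfi1, an inhibitor of the EGF receptor kinase, by 2.97 ± 0.18 (SE, adjusted p = 0.000166). Errfi1 was already bright in SalV (1.83 to 2.11) and read 4.49 to 5.14 in GenD on every array. The count of 25 fell to 19 without GenD replicate 3, and was 26 without GenD replicate 1 and SalV replicate 1 together. Zbtb16, another such target, had no probe matched to its symbol and was not analysed here.

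**Figure D2:**
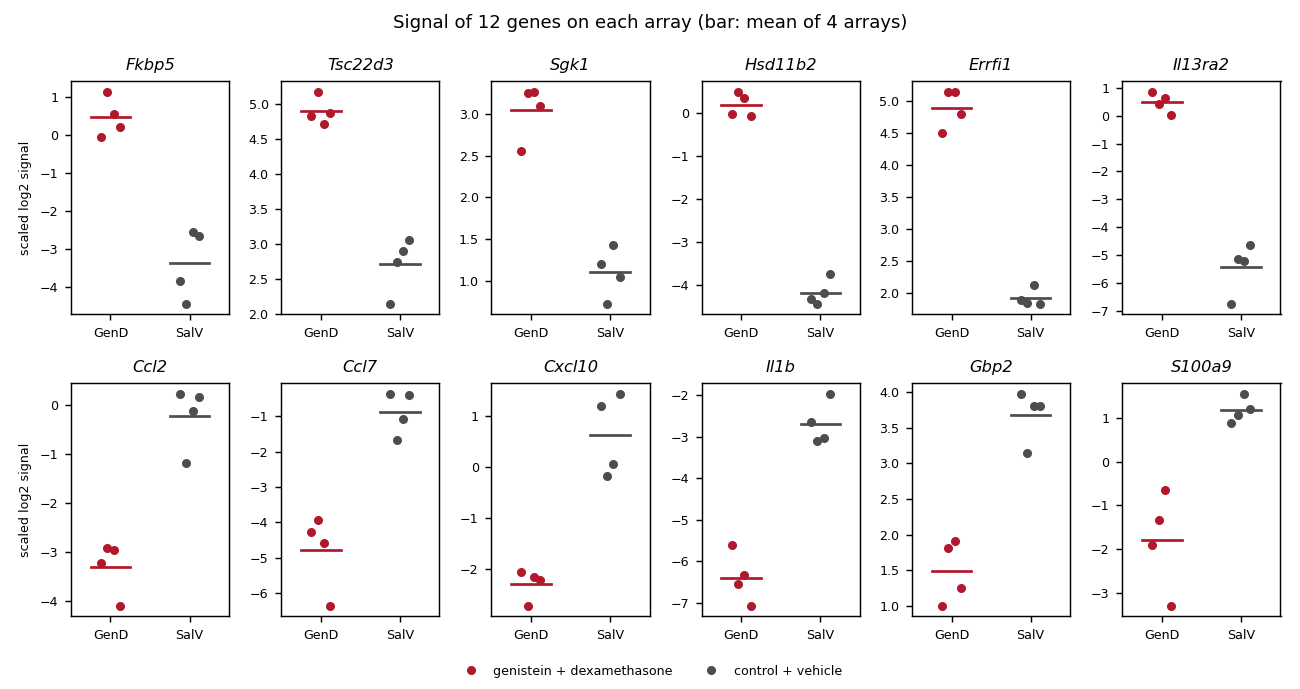
Scaled log2 signal (vertical axes, each gene on its own range) of 12 genes on the 4 GenD arrays (red) and the 4 SalV arrays (grey), with a bar at each group's mean. The 6 genes of the upper row are higher and the 6 of the lower row lower on every GenD array, with no overlap in any panel.

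Genes outside that list rose as well, some of them further. Fyb2, an adaptor protein of the FYN-binding family, had the largest rise, at 1.46, 2.27, 1.80 and 1.52 in GenD, against -4.41, -4.65, -3.86 and -4.39 in SalV (log2 fold change 6.09 ± 0.24, SE, adjusted p = 2.98e-05, a fold of 68.1). Il13ra2, the decoy receptor that takes up interleukin-13, read 0.86, 0.43, 0.63 and 0.04 in GenD, against -6.73, -5.15, -5.21 and -4.63 in SalV, and rose by 5.92 ± 0.42 (SE, adjusted p = 0.000387). Both genes were well above background on all 4 SalV arrays, so these are measured differences between dim and bright signals and not limits. Dpep1, a membrane dipeptidase that also cleaves leukotriene D4, rose by 5.05 ± 0.17 (SE, adjusted p = 2.01e-05), with 0.72 to 1.00 in GenD and -4.50 to -3.96 in SalV. The amino acid oxidase gene Lao1 rose by 4.28 ± 0.19 (SE, adjusted p = 5.24e-05). Adamtsl2, a secreted glycoprotein of the microfibril matrix, rose by 3.83 ± 0.57 (SE, adjusted p = 0.00827) but varied within GenD, at -4.02 on replicate 1 and -2.14 to -1.64 on the others, and it was well above background on 2 of the 4 SalV arrays. Omd, a small leucine-rich matrix proteoglycan, rose by 2.92 ± 0.28 (SE, adjusted p = 0.00174), and there GenD replicate 1 was the highest, at -0.80.

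The promoters of the rising genes were searched for the palindromic glucocorticoid response element (the letters AGAACA, any 3 bases, then TGTTCT) and for its looser core (GNACA, any 3 bases, then TGTNC), on both strands of a window from 250 bases before to 50 bases after the RefSeq gene start (GRCm38.p6). Windows were found for 12700 of the 15987 genes with a symbol, and for 78 of the 105 genes considered for naming. The full palindrome occurred in 1 gene of all 12700, Sgk1. The looser core, which the full palindrome contains, occurred in 9 of 671 genes called higher (1.34%), 2 of 582 called lower (0.344%) and 59 of all 12700 (0.465%). Among the genes described above it was found in Sgk1, Fyb2 and Fam107a, which are shown because they rose steeply and carry a match. The windows are chr10:21993640-21993939 (plus strand) for Sgk1, chr4:104913311-104913610 (plus strand) for Fyb2 and chr14:8309728-8310027 (minus strand) for Fam107a. They are printed 5′ to 3′ along the gene, with the match in capitals, which begins 189 bases before the start for Sgk1, 247 for Fyb2 and 120 for Fam107a.
Sgk1: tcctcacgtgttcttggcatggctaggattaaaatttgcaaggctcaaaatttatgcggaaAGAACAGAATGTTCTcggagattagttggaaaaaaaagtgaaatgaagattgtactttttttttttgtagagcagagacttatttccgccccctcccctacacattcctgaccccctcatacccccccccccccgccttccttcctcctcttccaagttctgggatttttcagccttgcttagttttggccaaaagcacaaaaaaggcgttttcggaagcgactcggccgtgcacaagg
Fyb2: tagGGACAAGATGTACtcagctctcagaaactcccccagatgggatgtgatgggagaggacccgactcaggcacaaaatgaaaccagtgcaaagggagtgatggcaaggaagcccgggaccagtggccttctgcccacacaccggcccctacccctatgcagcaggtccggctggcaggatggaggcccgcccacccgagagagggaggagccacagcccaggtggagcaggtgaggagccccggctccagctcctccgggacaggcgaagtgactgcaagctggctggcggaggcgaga
Fam107a: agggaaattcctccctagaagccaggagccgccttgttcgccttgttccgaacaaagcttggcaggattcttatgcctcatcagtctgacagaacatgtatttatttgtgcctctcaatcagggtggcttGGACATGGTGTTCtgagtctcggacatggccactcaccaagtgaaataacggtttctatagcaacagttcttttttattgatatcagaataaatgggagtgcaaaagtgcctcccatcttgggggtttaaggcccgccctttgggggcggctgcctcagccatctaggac
A match is a description of the letters and not evidence of binding, and many glucocorticoid response elements lie outside such a short window.

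Receptors and enzymes of steroid signalling changed in both directions: of 34 tested, 5 rose and 4 fell, with a median of 0.12. This was 26.5% called, against 11.1% of all targets. The counts rested on single arrays, with 1 rise and 1 fall without GenD replicate 3, 3 and 1 without SalV replicate 2 or GenD replicate 4, 3 and 2 without SalV replicate 4, and 4 and 2 without SalV replicate 3 or GenD replicate 2. The glucocorticoid receptor gene Nr3c1 read 1.23, 1.10, 1.02 and 1.04 in GenD, against 2.02, 2.12, 1.83 and 1.76 in SalV. All GenD arrays were below all SalV arrays, a fall of -0.83 ± 0.13 (log2, SE, adjusted p = 0.0111). Its other probes differed, at -0.99, -0.69 and -0.06, the last with an unadjusted limma p of 0.82. Hsd11b2, the enzyme that inactivates corticosterone but leaves dexamethasone largely active, read -0.04, 0.49, 0.33 and -0.07 in GenD, against -4.33, -4.43, -4.19 and -3.74 in SalV, and rose by 4.35 ± 0.20 (SE, adjusted p = 7.2e-05). Hsd11b1, which regenerates corticosterone in most tissues, rose as well, by 0.91. Esr1, the estrogen receptor alpha, read 2.38, 1.29, 2.08 and 2.08 in GenD, against 2.69, 3.82, 3.14 and 3.06 in SalV. These groups did not overlap, but GenD replicate 1 and SalV replicate 1 lay close, and the fall of -1.22 ± 0.30 (SE, adjusted p = 0.0379; other probe -0.74) lost its call when SalV replicate 2, 3 or 4 or GenD replicate 2, 3 or 4 was left out, with adjusted p-values of 0.0613 to 0.0938. It also lost it with median scaling (adjusted p = 0.0598). Star, which carries cholesterol into mitochondria, fell by 1.20 and lost its call without the same arrays (adjusted p = 0.0537 to 0.0896) and with median scaling (adjusted p = 0.0585). The progesterone receptor Pgr averaged -1.57 ± 0.49 in GenD and -1.72 ± 0.07 in SalV (SD, n = 4 each) and was not called (adjusted p = 0.702). The estrogen-induced lactoferrin gene Ltf was not tested because a spot was missing on an array of the comparison for each of its probes. Its first probe read 0.99, 2.00, 2.42 and -0.02 in GenD, against -0.24, 1.98 and -0.08 on SalV replicates 1, 3 and 4, which overlap.

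Chemokine genes were reduced. None of 40 tested chemokines and chemokine receptors rose, 15 fell (37.5%, against 6.93% of all targets), and the median was -0.78. Ccl2, the main attractant of monocytes, read -3.23, -2.93, -2.96 and -4.10 in GenD, against 0.22, -1.20, -0.13 and 0.15 in SalV (-3.07 ± 0.38, SE, adjusted p = 0.00423). Its neighbour in function, Ccl7, read -4.27, -3.92, -4.58 and -6.36 in GenD, against -0.36, -1.69, -1.08 and -0.41 in SalV (-3.90 ± 0.54, SE, adjusted p = 0.00647). For both, SalV replicate 2 was the lowest of the unexposed arrays and GenD replicate 4 the lowest of all, and the groups stayed apart. Cxcl5, which attracts neutrophils, was well above background on all 4 SalV arrays and on none of the GenD arrays, so its fall can be given only as at least 6.28-fold lower in GenD (adjusted p = 7.2e-05). Cxcl5 passed the filter on dim probes through its SalV arrays alone, so it could only be lower and its adjusted p is no support for the fall. A bound of this kind sets the SalV mean against the dimmest signals that were well above background on the GenD arrays. Cxcl10, which attracts activated T cells, read -2.06, -2.73, -2.17 and -2.22 in GenD, against 1.21, -0.19, 0.05 and 1.44 in SalV (-2.92 ± 0.38, SE, adjusted p = 0.00536). The others called lower included Ccl12, Ccl4, Cxcl9, Cxcl1, Ccr2, Ccl8, Ccl3, Cx3cr1, Cxcl16 and Ccl21a, from -2.16 for Ccl12 to -1.08 for Ccl21a. The list's median lay between -0.49 and -0.02 on the GenD arrays and between 0.26 and 0.49 on the SalV arrays, counted from its mean over the 8 arrays. Leaving out SalV replicate 4 or GenD replicate 4 gave 11 falls.

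Cytokines, prostaglandin enzymes and NF-kappaB genes moved less evenly, with 3 higher and 5 lower of 40 tested and a median of -0.14. This was 20% called, against 11.1% of all targets. Without SalV replicate 2, SalV replicate 4 or GenD replicate 3 there were none higher and 2 lower, without GenD replicate 4 there were 1 and 2, and without SalV replicate 1 there were 3 and 3. Il1b, the inflammatory cytokine interleukin-1 beta, read -5.62, -6.56, -6.33 and -7.07 in GenD, against -2.65, -3.11, -3.04 and -1.97 in SalV, a fall of -3.70 ± 0.35 (SE, adjusted p = 0.00174). The NF-kappaB inhibitor gene Nfkbie, itself an NF-kappaB target, fell by 0.96, a call that was lost without SalV replicate 2 or 4 or GenD replicate 3 or 4 (adjusted p = 0.0512 to 0.0767). Beyond these lists the steepest falls included Lrrc55 (-3.97), an auxiliary subunit of large-conductance potassium channels, the prion-like protein gene Prnd (-3.41) and Apol7c (-2.63). Prnd read -3.37, -3.81, -3.82 and -2.85 in GenD, against 0.35, -0.10, -0.29 and -0.17 in SalV, and Lrrc55 was well above background on 3 of the 4 GenD arrays.

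Genes induced by interferon were also lower, with 10 of 38 tested falling (26.3%, against 6.93% of all targets), none rising and a median of -0.57. The guanylate-binding GTPase genes led: Gbp2 read 1.00, 1.81, 1.91 and 1.25 in GenD, against 3.97, 3.15, 3.80 and 3.80 in SalV (-2.19 ± 0.26, SE, adjusted p = 0.00397), and Gbp4 fell by 2.36 ± 0.29 (SE, adjusted p = 0.00418). Ifit3, which takes part in the response to viral RNA, read 0.23, -0.35, 0.57 and 1.21 in GenD, against 2.76, 2.34, 1.84 and 2.58 in SalV, a fall of -1.96 ± 0.34 (SE, adjusted p = 0.0133). The list was uneven between GenD arrays, whose medians were -0.32, -0.86, -0.15 and 0.08, against 0.46, 0.32, 0.11 and 0.38 in SalV. GenD replicate 4 came close to SalV replicate 3. The count was 6 without SalV replicate 2, 6 without SalV replicate 4, and 13 with each gene's probes averaged.

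The NF-kappaB site (GGGAN followed directly by TTNCC) was searched in the same windows and on both strands. It occurred in 19 of 582 genes called lower (3.26%), in 11 of 671 called higher (1.64%) and in 194 of all 12700 (1.53%). Cxcl10 and Prnd are shown as the 2 steeply falling genes with a match, at chr5:92348840-92349139 (minus strand) and chr2:131950787-131951086 (plus strand). The capitals mark the site, which begins 103 bases before the start of Cxcl10 and 111 before that of Prnd. Casp4, an inflammatory caspase that fell by 1.28 ± 0.21 (SE, adjusted p = 0.0116), and Pglyrp1, which rose by 2.31, also had one.
Cxcl10: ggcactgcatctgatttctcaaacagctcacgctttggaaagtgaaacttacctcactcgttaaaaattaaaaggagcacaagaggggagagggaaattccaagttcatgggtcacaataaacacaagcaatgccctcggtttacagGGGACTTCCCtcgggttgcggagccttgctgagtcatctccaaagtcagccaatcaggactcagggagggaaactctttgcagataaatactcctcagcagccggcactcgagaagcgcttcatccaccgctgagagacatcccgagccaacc
Prnd: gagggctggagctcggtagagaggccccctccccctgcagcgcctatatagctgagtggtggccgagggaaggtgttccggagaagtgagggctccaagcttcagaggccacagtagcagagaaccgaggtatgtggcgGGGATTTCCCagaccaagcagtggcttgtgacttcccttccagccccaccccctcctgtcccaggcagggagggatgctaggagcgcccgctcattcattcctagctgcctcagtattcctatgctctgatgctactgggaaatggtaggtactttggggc
An estrogen response element (GGTCA, any 3 bases, then TGACC) was in the window of none of the called genes and of 5 of all 12700 (0.0394%).

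Among markers of blood cells, some of those of neutrophils were lower. Of 20 tested neutrophil markers 7 were called lower, none higher and 13 not called, against 6.93% lower and 4.19% higher over all targets. Their median was -0.84, with 13 below 0 and 7 above, and 2 further markers were not above background on any array. The falls numbered 1 with normexp background correction and 4 with the replicate block, and array weights gave 8 lower and 3 higher. S100a9, a subunit of the neutrophil protein calprotectin, read -1.90, -1.34, -0.65 and -3.30 in GenD, against 0.89, 1.07, 1.56 and 1.22 in SalV (-2.98 ± 0.50, SE, adjusted p = 0.0124). Its partner S100a8 fell by 2.01, a call lost without SalV replicate 2 (adjusted p = 0.0569) or SalV replicate 4 (adjusted p = 0.0505). The formyl peptide receptor Fpr2 read -8.00, -6.79, -5.95 and -6.84 in GenD, where 1 of 4 arrays was well above background, against -3.74, -4.57, -3.82 and -3.85 in SalV, where all 4 were. It passed the filter on dim probes mainly through SalV, and its log2 difference was -2.90, but -0.69 with normexp background correction (adjusted p = 1). The list's median was -0.46 to -0.02 in GenD and 0.24 to 0.78 in SalV, without overlap, and in whole tissue fewer cells of a type and less RNA per cell cannot be told apart. Macrophage and dendritic markers went both ways, with 3 higher and 7 lower of 37 (27% called, against 11.1% of all targets). The falls numbered 5 without SalV replicate 1, 2, 3 or 4 or GenD replicate 3, and 2 with normexp background correction. Cd83, a surface protein of mature dendritic cells, fell by 1.98 ± 0.13 (SE, adjusted p = 0.000284) without overlap, at 0.89 to 1.19 in GenD and 2.81 to 3.09 in SalV. The fungal receptor Clec4n (Dectin-2) fell by 1.72. The haemoglobin scavenger receptor Cd163, a known glucocorticoid target in macrophages that is in the induced list too, rose by 1.86 ± 0.38 (SE, adjusted p = 0.0224), a call lost without GenD replicate 3 (adjusted p = 0.0646). Lymphocyte markers were mostly not called (1 higher, 3 lower of 37, median -0.17), and their 10.8% called was near the 11.1% of all targets. The B-cell gene Ms4a1, which encodes CD20, fell by 1.81 ± 0.32 (SE, adjusted p = 0.0141). Eosinophil and mast cell markers had 1 fall among 14 (7.14% called) and red blood cell markers no call among 8.

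Among luminal and glandular epithelium, basal and squamous epithelium and smooth muscle markers 3.33%, 4.76% and 3.57% were called, against 11.1% of all targets. The shares were 22.2% for stroma, 24.2% for endothelium, 23.1% for mesothelium and 9.52% for ovary and oviduct. These lists are short, so a few genes move a share. Luminal and glandular epithelium had 26 of 30 above 0 and 1 call, the tight junction gene Cldn7 (0.90), which was lost without any of 6 arrays (SalV 1, 2 or 4, GenD 2, 3 or 4, adjusted p = 0.0521 to 0.0915). The median of that list was 0.28 and 0.51 on GenD replicates 3 and 4, above GenD replicates 1 and 2 and all SalV arrays. Basal and squamous epithelium had 1 fall among 21. Of 28 smooth muscle markers 1 was called, Pln, the calcium pump regulator phospholamban, which fell (-1.99 ± 0.42, SE, adjusted p = 0.0242), a call lost without SalV replicate 2 (adjusted p = 0.0744) or GenD replicate 3 (adjusted p = 0.0633). Of the muscle markers 24 of 28 were below 0 (median -0.46), and 9 were called lower without GenD replicate 1, 7 without both GenD replicate 1 and SalV replicate 1 and 13 with array weights. The median of the muscle list spread from -0.78 to 0.31 in GenD, against 0.10 to 0.40 in SalV. Stromal markers had 3 rises and 3 falls among 27, and 1 fall without SalV replicate 2, 3 or 4 or GenD replicate 3 or 4. Lum, a collagen-binding proteoglycan of the stroma, read 4.66, 4.18, 4.42 and 4.15 in GenD, against 5.47, 5.55, 5.50 and 5.42 in SalV (-1.13 ± 0.15, SE, adjusted p = 0.00569), while the microfibril protein Mfap5 rose by 0.98 ± 0.17 (SE, adjusted p = 0.013). Endothelial markers had 2 rises and 6 falls among 33. The apelin receptor Aplnr fell by 1.29 ± 0.13 (SE, adjusted p = 0.00226) and Lyve1, the hyaluronan receptor of lymphatic endothelium and some macrophages, rose by 1.66 ± 0.16 (SE, adjusted p = 0.00202). The 6 endothelial falls became 1 without SalV replicate 2 or GenD replicate 3, 3 without SalV replicate 3 or 4, and 10 with each gene's probes averaged. Mesothelial markers had 3 falls among 13, led by Lrrn4 (-2.32 ± 0.23, SE, adjusted p = 0.00193), and ovary and oviduct markers 2 falls among 21, which became none without SalV replicate 2 or 4 or GenD replicate 2, 3 or 4.

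**Figure D3:**
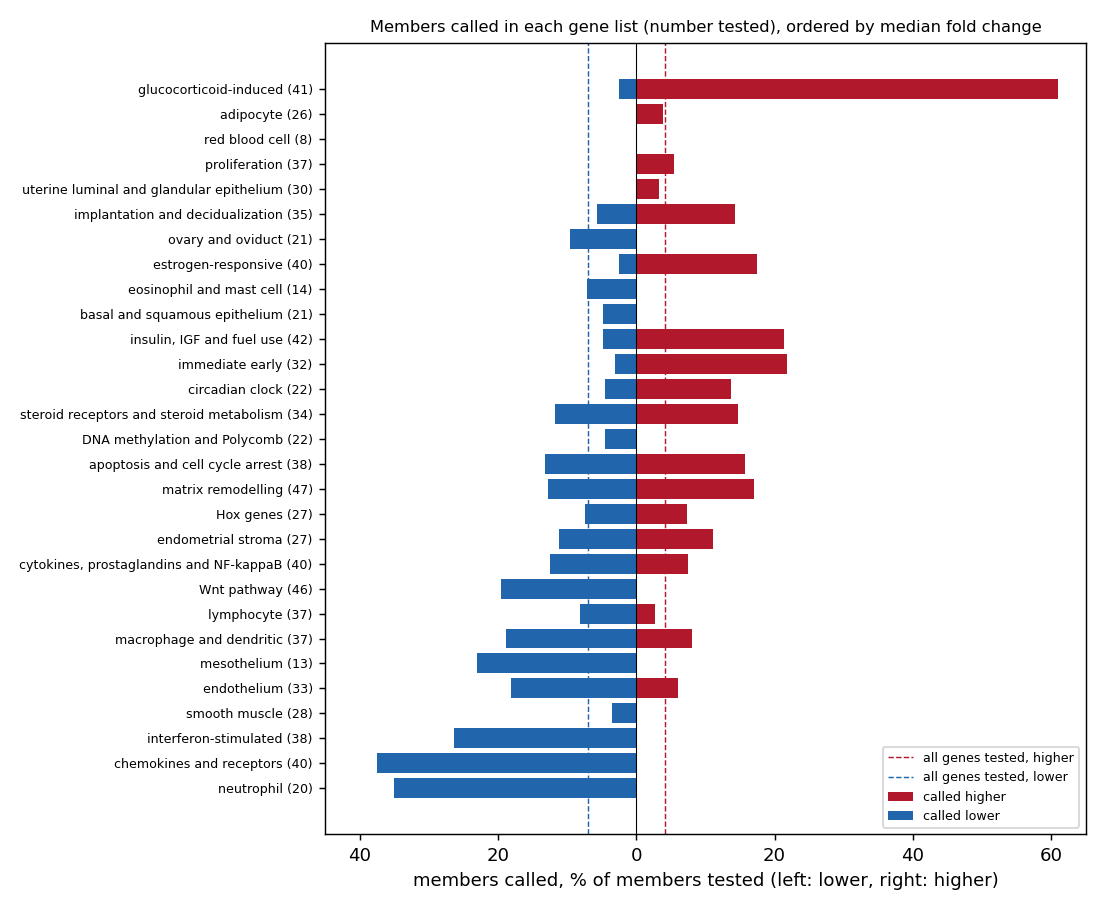
Share of the tested members of each of 29 gene lists called lower (blue, to the left) and higher (red, to the right), with the number tested in parentheses and lists ordered from the highest median log2 fold change at the top. Dashed lines give the shares over all targets, 6.93% lower and 4.19% higher, and the glucocorticoid-induced list stands at the top with 25 of 41 higher, while chemokines (15 of 40 lower) and neutrophil markers (7 of 20 lower) are at the bottom.

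**Figure D4:**
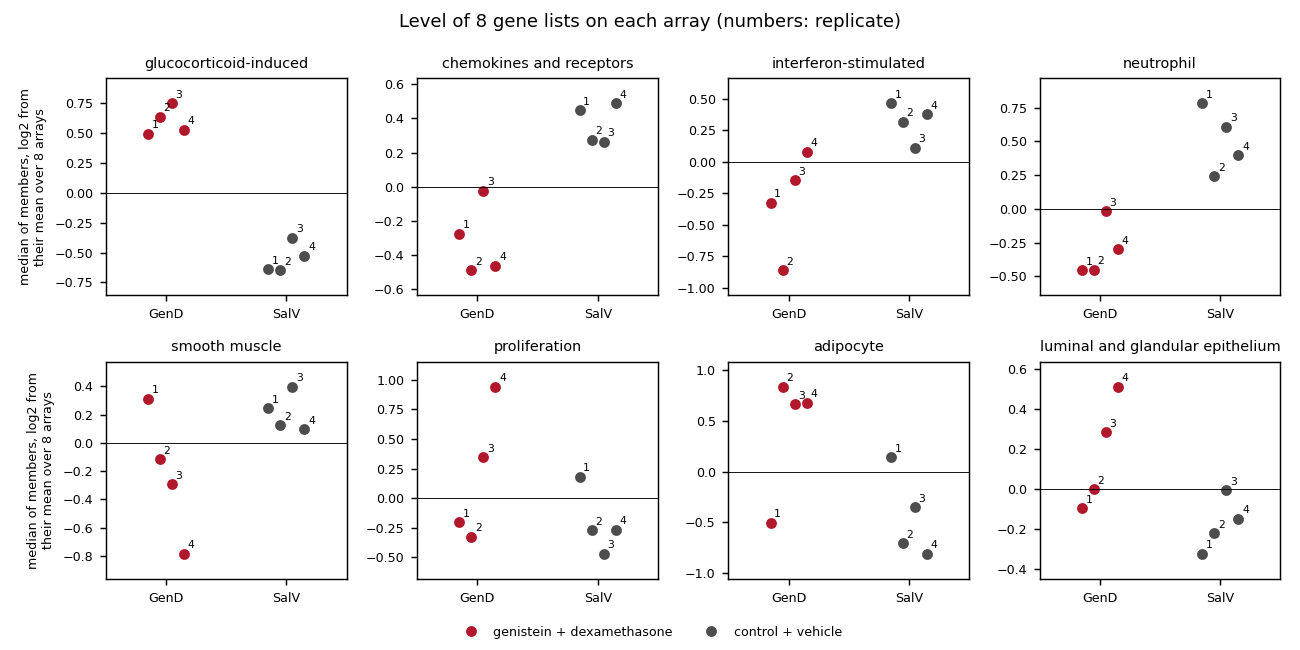
Median of a list's members on each array, as log2 distance from their mean over the 8 arrays (vertical axis), for 8 lists, with GenD in red, SalV in grey and the replicate number beside each point. The glucocorticoid-induced, chemokine, interferon and neutrophil panels show separate groups, whereas GenD replicate 1 lies within the SalV range for adipocyte markers and smooth muscle markers spread from -0.78 to 0.31 among the GenD arrays.

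Genes of the Wnt pathway, which pattern the uterus and regulate its glands, had 9 of 46 tested called lower and none higher, against 6.93% lower and 4.19% higher over all targets, with a median of -0.16. With array weights 16 were lower and 9 higher, and at an adjusted p below 0.1 there were 11 lower and 4 higher. They included ligands, amplifiers and antagonists alike. Wnt2, a stromal ligand, read -2.01, -3.02, -2.70 and -2.51 in GenD, against -0.37, -0.53, -0.64 and -0.35 in SalV (-2.09 ± 0.22, SE, adjusted p = 0.00239). Dkk2, a secreted antagonist, read -0.59, -1.73, -1.20 and -1.03 in GenD, against 1.23, 1.59, 0.60 and 0.95 in SalV (-2.23 ± 0.29, SE, adjusted p = 0.00509). Rspo1, which amplifies Wnt signals and is also on the mesothelial list, fell by 1.25 ± 0.16 (SE, adjusted p = 0.0055), and the secreted Wnt-binding protein Sfrp4 by 1.33 ± 0.20 (SE, adjusted p = 0.00933). None of these 4 genes' groups overlapped. The count of 9 was 6 without GenD replicate 3.

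Among 35 regulators of implantation and decidualization 5 rose and 2 fell (20% called, against 11.1% of all targets). Rises numbered 3 and falls none without SalV replicate 2 or GenD replicate 3, and falls were none without SalV replicate 3 or GenD replicate 4 and 1 without SalV replicate 1 or 4. Tcf23, a helix-loop-helix factor needed for decidualization in mice, read 5.07, 4.95, 4.90 and 4.58 in GenD, against 1.96, 1.74, 2.27 and 2.31 in SalV, a rise of 2.81 ± 0.18 (SE, adjusted p = 0.000238). Hoxa11 and Hoxa10, homeobox genes of uterine identity and receptivity, rose by 0.89 ± 0.16 (SE, adjusted p = 0.0138) and 0.91 ± 0.18 (SE, adjusted p = 0.0215). With slide as a block over 16 arrays neither was called (adjusted p = 0.129 for Hoxa11 and 0.127 for Hoxa10), and the call of Hoxa10 was also lost without SalV replicate 2 (adjusted p = 0.0696) or GenD replicate 3 (adjusted p = 0.0557). The Hox list as a whole had 2 rises and 2 falls among 27 (14.8% called), with no fall without SalV replicate 2, 3 or 4 or GenD replicate 2.

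Estrogen-responsive genes had 7 rises and 1 fall among 40 (20% called, against 11.1% of all targets), with a median of 0.24. Igf1, the growth factor through which estrogen drives uterine growth, was the largest, at 3.04, 3.11, 3.04 and 3.49 in GenD, against 0.92, 0.53, 1.03 and 0.67 in SalV (2.38 ± 0.17, SE, adjusted p = 0.000387, with 2.12 on its other probe). Cdkn1a, the cyclin-dependent kinase inhibitor p21 (1.90 ± 0.21, SE, adjusted p = 0.00283), and Lcn2, an iron-carrier protein (1.64 ± 0.23, SE, adjusted p = 0.00642), are on both this list and the glucocorticoid-induced one. Rises numbered 4 without SalV replicate 2, and also 4 without GenD replicate 3. Proliferation genes were mostly not called, with 2 rises and no fall among 37 (5.41% called) and a median of 0.37. Ccne2, the S-phase cyclin E2, rose by 1.74 ± 0.28 (SE, adjusted p = 0.0108). Its probe was dim in SalV (mean -5.66) and well above background on 3 of the 4 SalV arrays. Over the alternatives described below its difference ran from 0.61 to 2.24, and 2 of them ended its call. The median of the proliferation list was -0.20, -0.33, 0.35 and 0.94 in GenD, against 0.18, -0.27, -0.47 and -0.27 in SalV. GenD replicates 1 and 2 thus lay within or near the SalV range.

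Insulin, growth factor and fuel-use genes had 9 rises and 2 falls among 42 (26.2% called, against 11.1% of all targets). Ddit4, a stress protein that restrains mTORC1, read 5.78, 5.79, 5.92 and 5.99 in GenD, against 3.04, 3.36, 3.96 and 3.52 in SalV (2.40 ± 0.20, SE, adjusted p = 0.000786). The metabolic factor Klf15 (1.53 ± 0.13, SE, adjusted p = 0.00103) and the glucose-trapping enzyme Hk2 (1.23 ± 0.15, SE, adjusted p = 0.00412) rose as well. The count of rises was 5 without GenD replicate 3. Adipocyte markers had a median difference of 0.84 with 24 of 26 above 0, but 1 call (3.85%), the lipase gene Pnpla2. That count rested on single arrays: 12 were called higher without GenD replicate 1, 15 without both GenD replicate 1 and SalV replicate 1, 4 without SalV replicate 1, none without GenD replicate 3 or 4, and 20 with array weights. Their list median was -0.51, 0.84, 0.67 and 0.68 in GenD, against 0.14, -0.70, -0.35 and -0.81 in SalV, so GenD replicate 1 was below SalV replicate 1, and their part in the result was not tested.

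Cell death, clock and immediate early genes had calls in both directions. Of 38 apoptosis and arrest genes 6 rose and 5 fell (28.9% called, against 11.1% of all targets). The falls numbered 1 without SalV replicate 2, 3 or 4 or GenD replicate 3 or 4, 2 without SalV replicate 1 and 3 without GenD replicate 2, and the rises 3 without SalV replicate 2 or 4 or GenD replicate 3. In this list the survival gene Bcl2l1 rose by 1.11 ± 0.16 (SE, adjusted p = 0.00755). Of 22 clock genes 3 rose and 1 fell (18.2% called). Nfil3, a repressor of clock outputs, read 2.67, 2.56, 2.82 and 2.55 in GenD, against 0.89, 0.95, 0.76 and 1.28 in SalV (1.68 ± 0.15, SE, adjusted p = 0.00125). The repressor Nr1d1 fell by 1.30 ± 0.19 (SE, adjusted p = 0.00793), although its other probes gave -0.76 and 0.25. In a fit of all 16 arrays Nr1d1 differed by -0.57 between GenD and GenV (limma adjusted p = 0.30). Between SalD and SalV it differed by -1.70 (adjusted p = 0.0013). Of 32 immediate early genes 7 rose and 1 fell (25% called). The rises included Csrnp1 (1.62 ± 0.19, SE, adjusted p = 0.00382) and Myc (1.04 ± 0.12, SE, adjusted p = 0.00329). Myc had narrow groups, at 2.51 to 2.68 in GenD and 1.45 to 1.67 in SalV. Its GenV arrays read 1.97, 1.75, 2.65 and 2.34, all above the SalV arrays. In the fit of all 16 arrays Myc differed by 0.42 between GenD and GenV (limma adjusted p = 0.17). Between SalD and SalV it differed by 0.91 (adjusted p = 0.0021). Rises numbered 4 without SalV replicate 2 and 4 without GenD replicate 3. Of 22 DNA methylation and Polycomb genes, a list included because early hormone exposure is often studied through such marks, 1 was called (4.55%). This was Tet2 (-0.53), lost without any of 7 arrays (adjusted p = 0.0555 to 0.131) and kept without GenD replicate 2.

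Matrix genes split, with 8 higher and 6 lower of 47 (29.8% called, against 11.1% of all targets). Has2, the main hyaluronan synthase, read -2.34, -3.09, -2.78 and -2.57 in GenD, against -0.37, -0.40, -0.77 and -0.49 in SalV (-2.19 ± 0.19, SE, adjusted p = 0.000984). The protease Mmp11 fell by 2.04 ± 0.25 (SE, adjusted p = 0.00399). Timp1, an inhibitor of such proteases, fell by 1.92 ± 0.39 (SE, adjusted p = 0.0226), a call lost without SalV replicate 3 (adjusted p = 0.0527) or GenD replicate 4 (adjusted p = 0.0587). Rises numbered 3 without GenD replicate 3 and 4 without SalV replicate 2, SalV replicate 4 or GenD replicate 4, and falls 3 without SalV replicate 3 or GenD replicate 4 and 4 without SalV replicate 1, 2 or 4 or GenD replicate 3.

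The GenV and SalD arrays give values for each exposure alone, but the SalD arrays stood apart. Their lymphocyte medians were -1.11 to -0.63, against -0.38 to 0.29 on the other 12 arrays, and their ovary and oviduct medians -0.66 to -0.45, against -0.25 to 0.45. The part of this in the differences from SalD given below was not tested. In a fit of all 16 arrays 1 target was called between GenV and SalV (0.00429%), 4930577N17Rik, higher by 0.97 in GenV. Between GenD and GenV 1340 were called (5.75%), with 2.78% higher and 2.97% lower. Between SalD and SalV 5707 were called (24.5%), with 9.07% higher and 15.4% lower. Between GenD and SalD 5587 were called (24%), with 17.4% higher and 6.63% lower. Between GenD and SalV 2428 were called in that fit (10.4%), with 5.15% higher and 5.28% lower. These comparisons share arrays, so their values are given side by side and not set against each other. Fkbp5 differed by 4.56 between GenD and GenV, by 4.44 between SalD and SalV, by -0.60 between GenD and SalD (adjusted p = 0.25) and by -0.72 between GenV and SalV (adjusted p = 0.37). Il1b differed by -3.36 between GenD and GenV, by -3.59 between SalD and SalV, by -0.11 between GenD and SalD (adjusted p = 0.87) and by -0.34 between GenV and SalV (adjusted p = 0.67). In both, the dexamethasone comparisons were called and the genistein comparisons were not. Esr1 was called between GenD and SalV in that fit (-1.22, adjusted p = 0.021) and in none of the other 4 comparisons. It differed by -0.78 between GenD and GenV (adjusted p = 0.16), by -0.46 between SalD and SalV (adjusted p = 0.27), by -0.76 between GenD and SalD (adjusted p = 0.074) and by -0.44 between GenV and SalV (adjusted p = 0.46).

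For some called targets the GenD arrays stood clear of all other 12 arrays. This was so for 161 of the 975 targets called higher and 61 of the 1613 called lower, unnamed ones included. The share among all 23286 targets was not counted, so these counts are no result about the called targets. Between GenD and SalD 17.4% of all targets were called higher and 6.63% lower in the fit of all 16 arrays. F2r, the thrombin receptor PAR1, read 4.33, 4.62, 4.45 and 4.34 in GenD, against 1.81, 1.62, 1.61 and 1.35 in SalV (2.84 ± 0.15, SE, adjusted p = 7.83e-05). It differed by 0.42 between GenD and SalD (adjusted p = 0.14), in a fit without the 1 SalD array whose spot was missing. Spon1, the matrix protein F-spondin, averaged 1.45 ± 0.34 in GenD and -1.36 ± 0.13 in SalV (SD, n = 4 each), a rise of 2.81 ± 0.19 (SE, adjusted p = 0.000279), and differed by 0.95 between GenD and SalD (adjusted p = 0.025). Slc25a29, a mitochondrial carrier of basic amino acids, rose by 2.50 ± 0.20 (SE, adjusted p = 0.000734) and differed by 1.00 between GenD and SalD (adjusted p = 0.0034). Pglyrp1, a peptidoglycan recognition protein, rose by 2.31 ± 0.15 (SE, adjusted p = 0.000238) and differed by 0.56 between GenD and SalD (adjusted p = 0.03). Lower genes of this kind included the neural adhesion gene Chl1, at -3.35, -3.67, -3.10 and -3.80 in GenD, against -0.85, -0.97, -1.22 and -1.33 in SalV, with -1.35 between GenD and SalD (adjusted p = 0.0042). Cd274, the T-cell inhibitory ligand PD-L1, fell by 1.64 ± 0.18 (SE, adjusted p = 0.00283) and differed by -0.71 between GenD and SalD (adjusted p = 0.023). Flrt2, an adhesion receptor, fell by 1.47 ± 0.19 (SE, adjusted p = 0.00528), but its other probe gave 0.35. These genes were picked because their GenD arrays were extreme, so the gap to GenV and SalD is a description.

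For others the GenV mean already lay at least midway from SalV to GenD and the GenV arrays did not overlap SalV. This was so for 57 of the 975 targets called higher and 125 of the 1613 called lower, unnamed ones included. How many of all 23286 targets had GenV arrays that did not overlap SalV was not counted. The counts are therefore no result about the called targets. None of these was called between GenV and SalV. Runx1t1, a transcriptional corepressor, read 1.26, 0.18, 0.55 and 0.25 in GenD, with a mean of 1.06 in GenV and 1.11 in SalD, against 1.89, 1.97, 1.79 and 1.97 in SalV (-1.35 ± 0.24, SE, adjusted p = 0.014). Filip1, a regulator of filamin A, read -1.75, -2.61, -2.14 and -2.59 in GenD, with means of -1.84 in GenV and -1.97 in SalD, against -0.99, -0.49, -0.40 and -1.10 in SalV (-1.52 ± 0.25, SE, adjusted p = 0.0117). Rgs7, a regulator of G-protein signalling, was well above background on all GenD arrays and on no SalV array and was at least 2.01-fold higher in GenD (adjusted p = 0.0119). Rgs7 passed the filter on dim probes through its GenD arrays alone, so it could only be higher and its adjusted p is no support for the rise. The GenV arrays were uneven. Runx1t1 read 1.75, 1.75, 0.29 and 0.47 and Filip1 -1.29, -1.25, -2.83 and -1.98 in GenV, so that replicates 1 and 2 of both lay nearer to SalV than the GenV mean did. Crabp2, which carries retinoic acid to its receptor, was higher in GenV (mean -4.65) than in GenD (mean -5.27) and lowest in SalV (mean -6.94). Its call of 1.67 ± 0.42 (SE, adjusted p = 0.0414) was lost without SalV replicate 2, 3 or 4 or GenD replicate 1, 3 or 4 (adjusted p = 0.0529 to 0.118). Over the alternatives its difference between GenD and SalV ran from 0.35 to 1.99.

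**Figure D5:**
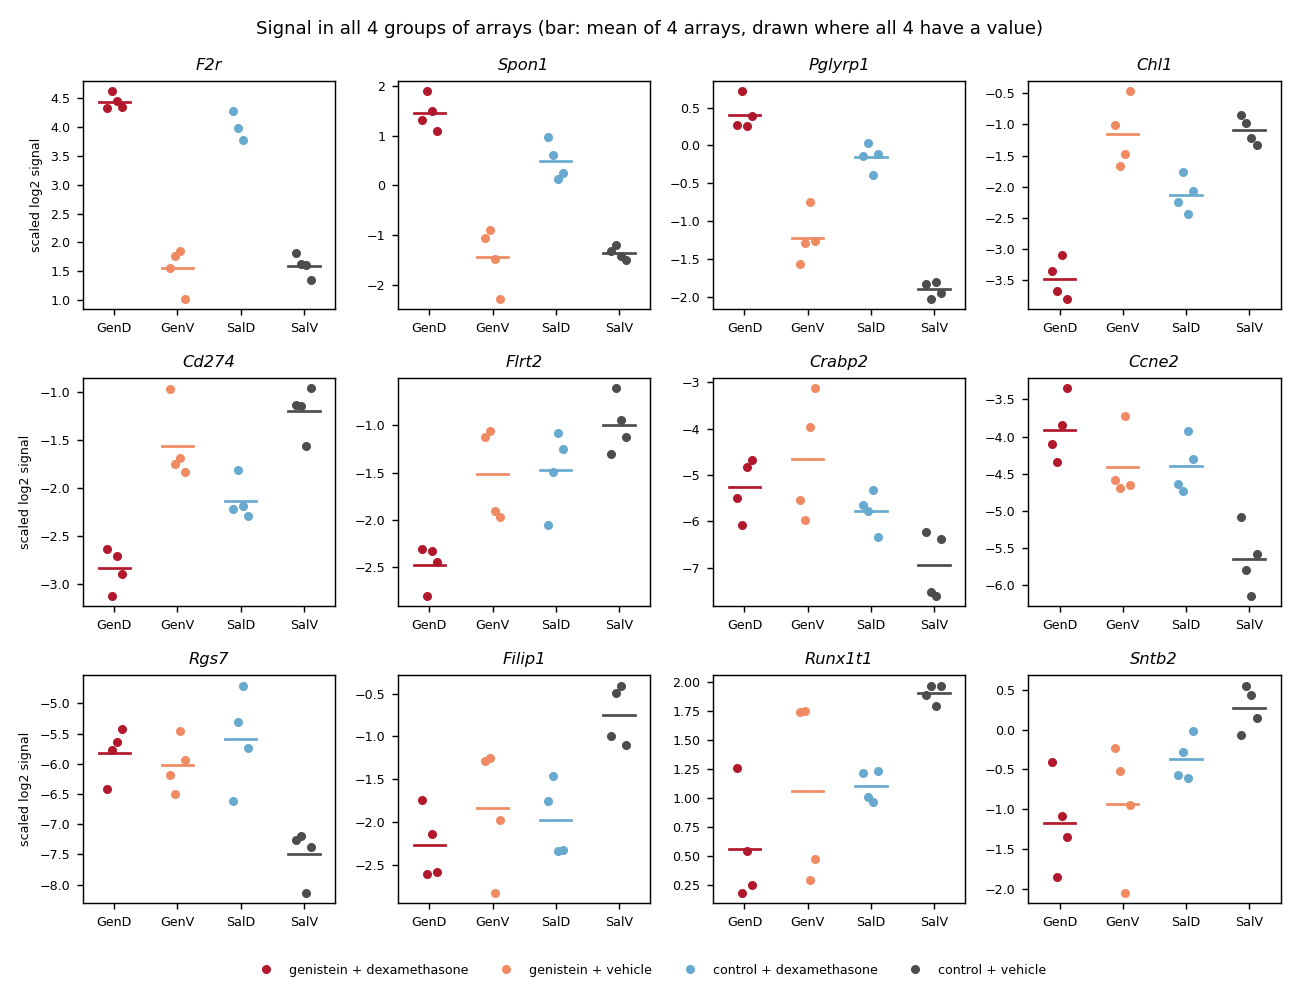
Scaled log2 signal (vertical axes, each gene on its own range) of 12 genes in all 4 groups of arrays, with GenD in red, GenV in orange, SalD in light blue and SalV in grey. Bars are means of 4 arrays, and F2r has 3 SalD points and no SalD bar because 1 spot was missing. F2r, Spon1, Pglyrp1, Chl1, Cd274 and Flrt2 (brightest probe) have their GenD arrays beyond those of the other 3 groups, and for Crabp2, Ccne2, Rgs7, Filip1, Runx1t1 and Sntb2 the GenV arrays lie on the GenD side of SalV.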

How the data were processed

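Uterus RNA (400 ng) was labelled with Cy3 and hybridised to 1-colour Agilent arrays of design 014868. The deposited scanner tables hold a processed intensity for each spot, already background-corrected, and flags given as scores for spots well above background and for outliers, per the file headers. The submitters' processing notes name Agilent Feature Extraction 9.5, whereas the headers give 12.0.0.7. No genome build for the probes is given in the sources used here.

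From these, each array's 45018 spots lost 1639 controls, and the log2 processed intensity was scaled by subtracting the array's 75th percentile. Outlier spots were set to missing, and probes with a missing value on any of the 8 arrays were left out (572). Probes had to be well above background on at least 4 of the 8 arrays, which 9590 did not reach and 31012 did. The brightest probe stood for each gene, giving 23286 targets, 15987 with a symbol through RefSeq. GenD and SalV were compared with limma 3.58.1 (lmFit and eBayes, R 4.3.3), without a block, and p-values were adjusted by Benjamini-Hochberg over all 23286. The number of arrays limits the precision. The script was tested on simulated data of 23286 genes, with 100 changed 2-fold and 100 changed 4-fold. It called 32% of the 2-fold and 79% of the 4-fold changes, with 10 false calls. Fewer genes changed there than were called here, so these shares do not carry over directly.

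Gene lists (29) and members were chosen with earlier results of these data known. Named genes were taken from both ends of the fold-change ranking (12 each) of called genes whose arrays did not overlap, up to 4 called members of each list (2 of the smallest p where none was called), a set of receptors and receptor targets, and the 6 largest of each direction for the GenV and the GenD patterns described at the end of the report. The text gives a selection of these, and it also names further called list members to complete a group.

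Replicate numbers did not pair the arrays: correlations of the deviations were -0.372, -0.0426, 0.203 and 0.0351. Alternatives covered scaling, background correction, filters, probe choice, slide, replicate block, weights, threshold and each array left out. Further settings were added after seeing the data: the leaving out of SalV replicate 1 and GenD replicate 1 together, and normexp with local background limited at its 99th percentile. Some called genes are not reported here.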

Additional observations from a re-analysis of the deposited data

Results flagged for a closer look

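Among 268 groups of 4 arrays, 12 held an array far from the other 3 by Dixon's ratio, and chance marks about 1 group in 20. Of single genes, Igf1 was 3.493 on GenD replicate 4, against 3.038 to 3.112 on the other GenD arrays. Stat3, a transducer of cytokine signals that fell, was 1.904 on GenD replicate 2, against 2.803 to 2.976 on the others. Wt1, a mesothelial and stromal factor, was 2.004 on GenD replicate 1, against 1.413 to 1.474. On SalV arrays, Fpr2 was -4.569 on replicate 2, against -3.854 to -3.738 on the others, and Fst, the activin-binding protein follistatin, was -4.553 on replicate 4, against -4.034 to -3.943.

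Of the list medians, GenD replicate 4 stood apart for lymphocyte markers (-0.376), Hox genes (-0.245) and DNA methylation and Polycomb genes (0.0602). GenD replicate 1 stood apart for adipocyte markers (-0.505) and red blood cell markers (1.03), and SalV replicate 1 for red blood cell markers as well (0.478). GenD replicate 2 stood apart for immediate early genes (0.237).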

How the results depend on the processing

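There were 2588 genes called, with 975 genes called higher and 1613 genes called lower. Beside these, median scaling gave 978 lower and no filter on dim probes gave 634 higher. Normexp background correction gave 78 (58 higher, 20 lower), all of them among the 2588. There, the lowest signal minus background was -18549 on SalV replicate 2, -4187 on GenD replicate 2 and -13680 on GenD replicate 4, and with the local background limited it gave 2234 (863 higher, 1371 lower). Slide as a fixed block over 16 arrays gave 4233 (1501 higher, 2732 lower), which held 1964 of the 2588. Array weights gave 8933 (4636 higher, 4297 lower) and an adjusted p below 0.1 gave 4764 (1934 higher, 2830 lower). The replicate block gave 286 (122 higher, 164 lower), of which 281 were among the 2588, and the numbers do not pair the arrays. Leaving out 1 array gave 827 to 3190 calls, 300 to 1177 higher and 495 to 2246 lower. Leaving out SalV replicate 1 and GenD replicate 1 together gave 3410 (1345 higher, 2065 lower). The series' value table gave the same 2588. Apart from the limited background, the cause of these shifts was not tested. Of 102 called genes considered for naming, 27 kept their call in all 27 tested alternatives and none changed direction. Pgr, not called, turned to -0.07848 without GenD replicate 4 (-0.07848 to 0.2924 over the arrays left out) and was -0.25 within slide 3. The glucocorticoid-induced rises were 15 with the replicate block and 13 with normexp, and chemokine falls were 4 and 2. Dim targets limit the comparison: Cxcl5 in GenD and Rgs7 in SalV have only a bound.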

Other observations

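Some further called members of the lists complete the groups above. Among glucocorticoid-induced genes, Slc10a6, a carrier of sulfated steroids, rose by 2.57, the hypoxia factor Hif3a by 2.36 and the metal-binding Mt1 by 1.62. Among matrix genes Mmp7, an epithelial protease, rose by 1.61 and Adamts15 by 1.39, whereas Mmp3 fell by 1.36. Among steroid enzymes Srd5a2, a reductase of testosterone and progesterone, rose by 1.29, a call lost without GenD replicate 2, 3 or 4 (highest adjusted p = 0.0716). It was well above background on 2 of the 4 SalV arrays, and its difference ran from 0.33 to 1.91 over the alternatives. These genes were chosen after their values were seen.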
